A study of Homo sapiens with 30 samples.

Results

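The Eph receptors are the largest family of receptor tyrosine kinases. 9 of its genes, EPHA1, EPHA2, EPHA3, EPHA4, EPHA7, EPHB2, EPHB3, EPHB4 and EPHB6, were described here out of 58735 genes in the deposited tables, and they were taken by gene name from the count and FPKM tables. The members were chosen by their measured counts and FPKM: EPHA3 and EPHA7 had been picked because earlier results of these data showed large differences between the cell lines, and the other members were added to see whether the family moved together. Differences between lines are therefore given for the receptors as a description, with no test, whereas their responses to androgen were tested.

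All 30 samples came from LNCaP, an established human prostate cancer cell line whose growth depends on androgen. Every sample, controls included, carried shmTOR, a short hairpin RNA against mTOR, a kinase that ties cell growth to nutrients and growth factors. With an inducible system the cells were rescued with an empty vector (EV), WT-mTOR (WT), NES-mTOR, which carries a nuclear export signal (NES), NLS-mTOR, which carries a nuclear localization signal (NLS), or NLS-mTOR D2357E, the kinase-dead nuclear form (NLSKD). These are called the 5 lines below. After 48 h in RPMI medium with 2% charcoal-stripped serum, which lacks most steroids, each line was given fresh medium with ethanol vehicle (0.1%) or with 10 nM R1881, a synthetic androgen, for 24 h. The 5 lines and 2 treatments gave 10 groups of 3 libraries, and whether a line was a single clone or a pool is not given in the sources used here. There was no group without the hairpin, so EV, in which mTOR stayed knocked down, is the reference for the rescue lines. Nothing says that the 3 libraries of a group came from separate cultures, so p-values measure only the spread between these libraries, which may be technical.

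Eph receptors bind ephrins, ligands that are themselves tied to the surface of a neighbouring cell, so signalling needs contact between cells. EphA receptors mostly bind the lipid-anchored ephrin-A ligands and EphB receptors the membrane-spanning ephrin-B ligands. On binding, the receptors cluster, phosphorylate each other and act through adaptors and exchange factors on small GTPases, which changes cell shape, adhesion and migration, and the ephrin-bearing cell can signal in return. In epithelial cancers, EPHA2 and EPHB4 are the members most often studied.

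The libraries held between 21.44 and 61.76 M counts each, and mitochondrially encoded genes took 3.898% to 11.71% of the counts, with 5 libraries above 9%. The luminal prostate markers KLK3, KLK2, FOLH1, HOXB13, KRT8 and KRT18 were detected in all 30 libraries, KLK3 at 48 to 1240 FPKM and KRT18 at 57.8 to 338 FPKM, while the summed level of the 3 basal markers did not pass 1.25 FPKM. FPKM is the deposited level per gene length and per scaled library depth, and it is used below wherever levels of different genes are set side by side. MTOR was lowest in EV (mean 2.10 FPKM under vehicle) and stood at 76.5 FPKM in NLS, 83.6 FPKM in NLSKD, 150 FPKM in WT and 430 FPKM in NES, in the direction that the labels give. In EV MTOR rose under R1881 to 5.45 FPKM (log2 change 1.36 ± 0.33, edgeR adjusted p = 0.0079), so the reference line held more MTOR RNA under androgen, still below each rescue line. The androgen-induced genes FKBP5 and KLK3 rose with R1881 by 4.38 ± 0.12 and 2.54 ± 0.15 on the log2 scale (standard error, mean of the 5 lines, edgeR adjusted p = 2.75e-20 and 1.90e-13).

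EPHA3, a receptor for ephrin-A5 that was first found on leukaemia cells, had the widest range of the members. It lies at chr3:89107524-89482134 on the plus strand of hg38. Under vehicle its libraries read 1.88, 0.572 and 1.61 FPKM in EV, 12.2, 4.55 and 4.64 in NES, 30.5, 12.2 and 31.2 in NLS, 25.7, 26.3 and 30.8 in NLSKD, and 81.6, 69.2 and 66.4 in WT. Under R1881 they read 0.505, 0.334 and 0.324 FPKM in EV, 4.39, 2.25 and 2.29 in NES, 32.1, 7.06 and 18.2 in NLS, 19.2, 12.1 and 24.7 in NLSKD, and 58.6, 42.2 and 40.5 in WT. WT was thus above and EV below every other line under both treatments, with no overlap of libraries. NES lay above EV and below NLS without overlap under both treatments, although the highest NES library and the lowest NLS library under vehicle both round to 12.2 FPKM. The group mean in WT was 53.4 times that in EV under vehicle and 121 times under R1881. The order of the 10 groups by mean ran from WT vehicle (72.4 ± 8.13 FPKM, SD, n = 3) and WT R1881 (47.1 ± 9.98) through NLSKD vehicle, NLS vehicle, NLS R1881 and NLSKD R1881 to NES vehicle (7.12 ± 4.38), NES R1881 (2.98 ± 1.22), EV vehicle (1.35 ± 0.691) and EV R1881 (0.388 ± 0.102). From NLSKD vehicle down to NES vehicle each group overlapped the next, whereas WT vehicle, WT R1881 and NLSKD vehicle were separate, as were neighbours from NES vehicle downward. The groups did not stand in the order of their MTOR level: NES held the most MTOR and, of the rescue lines, the least EPHA3. Within some groups the libraries of both genes ran in the same order, as in NLS under R1881 (MTOR at 113, 51.4 and 91.4 FPKM). In others they did not, as in NLSKD under vehicle (MTOR at 122, 53.5 and 75.4 FPKM). Whether EPHA3 depends on the MTOR level was not tested.

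EPHA7, another ephrin-A receptor, known from axon guidance and the developing cortex, lies at chr6:93240020-93419547 on the minus strand. Under vehicle it read 1.58, 0.318 and 1.18 FPKM in EV, 8, 2.77 and 6.65 in NLS, 6.45, 5.39 and 6.23 in NLSKD, 18.0, 8.27 and 9.56 in NES, and 20.7, 13.5 and 14.0 in WT. Under R1881 it read 2.49, 1.18 and 1.28 FPKM in EV, 14.5, 2.96 and 5.05 in NLS, 9.92, 4.04 and 7.52 in NLSKD, 12.9, 6.41 and 6.05 in NES, and 23.7, 12 and 11.4 in WT. EV was again below every rescue line, by 15.7-fold against WT under vehicle. The rescue lines came in another order than for EPHA3: NES (mean 11.9 FPKM under vehicle) stood next to WT (16.1), and NLS (5.80) and NLSKD (6.02) were below both under vehicle. NLS and NES did not overlap under vehicle, where NLS held 3.46 times the EPHA3 but 0.486 times the EPHA7 of NES. Under R1881, EPHA7 overlapped between these lines. Among the 10 groups ordered by mean EPHA7, the only neighbours whose libraries did not overlap were NLS vehicle and EV R1881.

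EPHA2, which binds ephrin-A1 and is widely expressed in epithelia, lies at chr1:16124337-16156087 on the minus strand and followed the same split at a lower level. Under vehicle it read 0.674, 0.841 and 0.813 FPKM in EV, 1.33, 1.98 and 1.77 in NES, 1.82, 2.22 and 2.25 in NLS, 2.21, 2.38 and 1.89 in NLSKD, and 2.61, 3.82 and 2.50 in WT. Under R1881 the EV libraries held 0.420, 0.347 and 0.357 FPKM and those of the 4 rescue lines between 0.756 and 1.81. EV did not overlap any rescue line within a treatment, and WT held 3.84 times the EV level under vehicle and 3.91 times under R1881.

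EPHB4, the main receptor of ephrin-B2, lies at chr7:100802565-100827521 on the minus strand. It read 3.65, 4.20 and 2.97 FPKM in EV under vehicle and 4.17, 2.66 and 2.72 under R1881, while the 4 rescue lines held 5.38 to 9.54 under vehicle and 4.89 to 7.97 under R1881. All 4 lines were above EV without overlap, by 1.82 to 2.16 times under vehicle and 1.87 to 2.26 times under R1881, and they overlapped each other. Its exons share 69 of 6435 bases with those of SLC12A9 on the other strand, and the strand setting of the counting is not given in the sources used here.

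The other members did not follow this split. EPHA1, an epithelial receptor, read 4.18, 5.49 and 3.63 FPKM in EV under vehicle and was lower without overlap in WT (2.6, 2.74 and 2.79) and NES (1.94, 3.02 and 3.03), while NLS and NLSKD overlapped EV. Under R1881 EPHA1 overlapped between EV and each rescue line. EPHB2, which with EPHB3 positions cells in the intestinal crypt, was lowest in NES, at 0.656, 0.663 and 0.546 FPKM under vehicle against 1.64, 1.48 and 0.969 in EV. NES stayed below EV under R1881 (0.639, 0.552 and 0.494 against 1.46, 0.862 and 1.04). EPHB3 ran from 2.85 to 7.30 FPKM over the 30 libraries, and its highest group mean was 1.75 times its lowest, the smallest such ratio among the 8 members compared. EPHB6, whose kinase domain is inactive, held 407 counts in all libraries together and did not exceed 0.366 FPKM, reached in NES under R1881. EPHA4, which binds ephrins of both classes, had 3 counts in all, 1 in each of 3 libraries, and 27 libraries were at 0, so it was not tested and is left out of the counts of 8 members below.

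**Figure D1:**
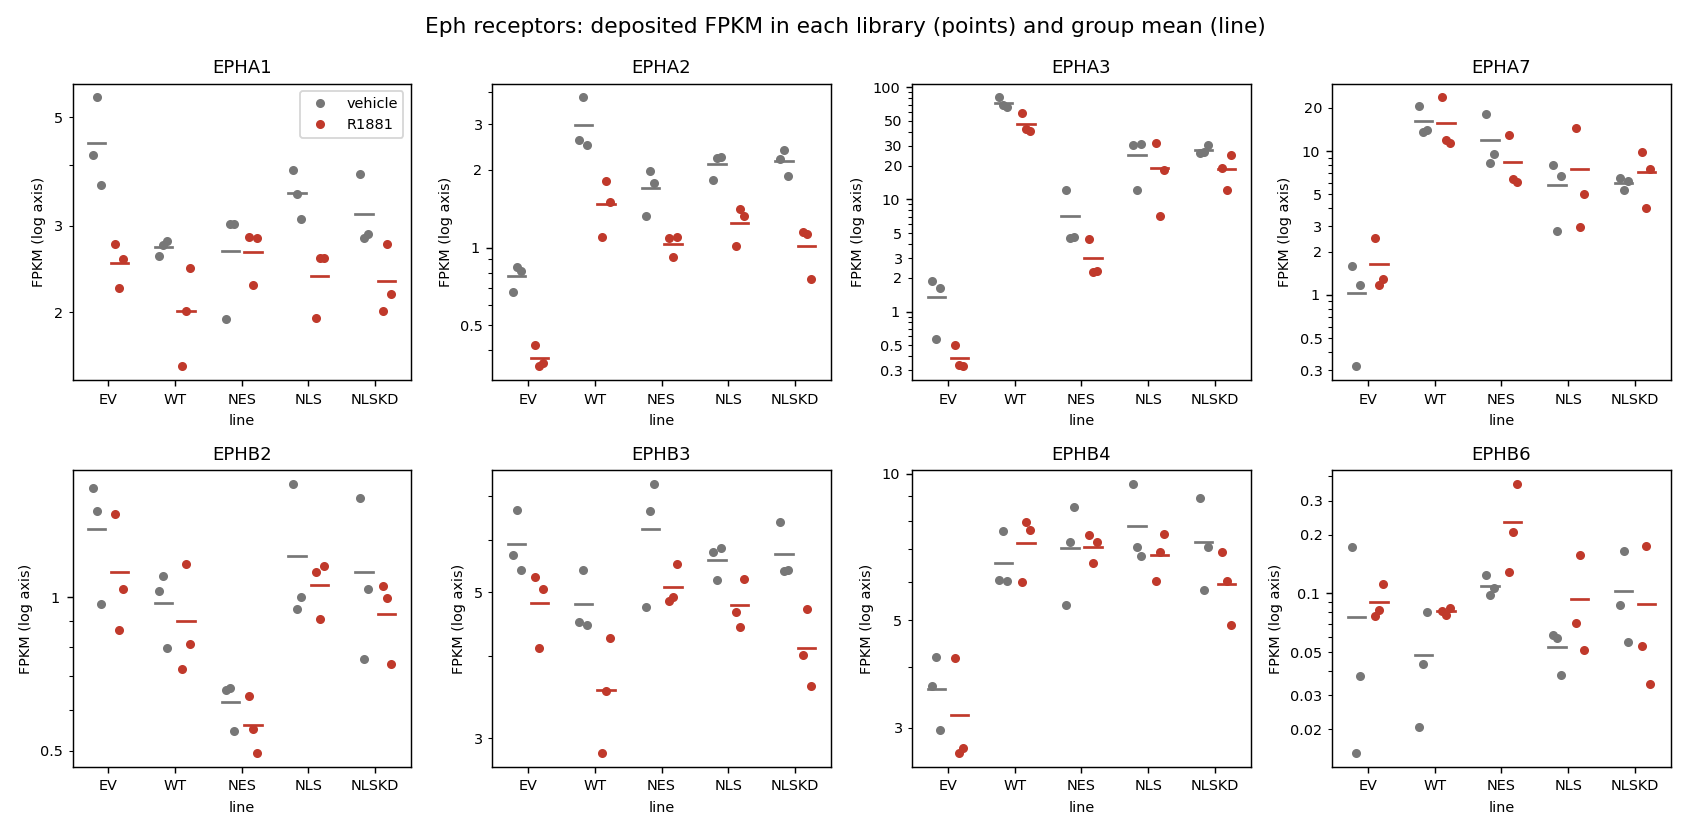
Deposited FPKM (log axis) of the 8 Eph receptors with enough counts, by line, with vehicle in grey and R1881 in red; points are the 3 libraries of a group and short lines their mean. EPHA3, EPHA7, EPHA2 and EPHB4 were lowest in EV under both treatments, whereas EPHB2 was lowest in NES.

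Counted over the 8 members, EPHA3, EPHA7, EPHA2 and EPHB4 were above EV without overlap of libraries in each rescue line under each treatment, a count of 4 of 8 (5 of 8 in NES under R1881, where EPHB6 joined them). The share of all 18296 tested genes that were higher than EV without overlap was 6.84% in NES, 8.06% in NLSKD, 8.43% in NLS and 10.8% in WT under vehicle, and 13.5%, 9.42%, 8.39% and 11.9% in the same lines under R1881. Because the rule chose members by these differences, nothing is read from that contrast. The comparisons with EV also share the EV libraries. In the comparison of NLS with its kinase-dead form, 0 of 8 members were separate under either treatment, against 7.01% of tested genes under vehicle and 4.33% under R1881. The ratio of NLS to NLSKD lay between 0.893 and 1.10 under vehicle for 7 members, with EPHB6 at 0.512, and EPHA3 stood at 0.893 under vehicle and 1.03 under R1881. In NLS against NES, EPHA1, EPHA3 and EPHB2 were higher and EPHA7 and EPHB6 lower without overlap under vehicle, where 11.8% of tested genes were separate. Under R1881 EPHA3 and EPHB2 were higher (12.6% of tested genes separate).

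**Figure D2:**
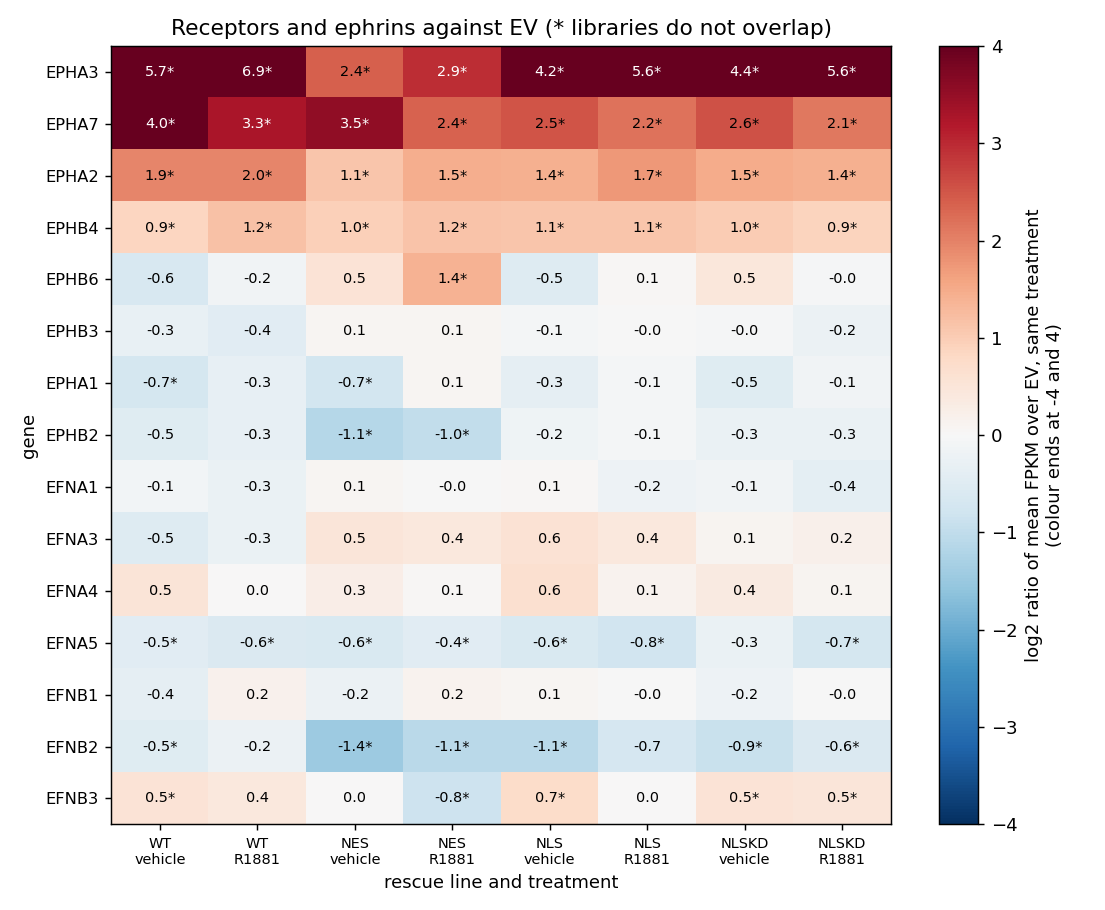
Log2 ratio of the mean FPKM of each rescue line to EV under the same treatment for 8 receptors and 7 ephrins; an asterisk marks groups whose 3 libraries do not overlap. The upper 4 receptor rows are positive in all 8 columns, while EFNA5 is below 0 in all 8.

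Summed over the 14 Eph receptor genes in the tables, the family held 25.9 ± 1.76 FPKM in EV under vehicle and 113 ± 12.8 in WT (SD, n = 3), with 43.0 ± 6.26 in NES, 56.8 ± 16.2 in NLS and 60.3 ± 5.11 in NLSKD. Under R1881 the sums were 20.5 ± 3.97 in EV, 32.5 ± 5.85 in NES, 46.5 ± 8.47 in NLSKD, 48.3 ± 19.2 in NLS and 83.8 ± 14.4 in WT. EPHA3 took 5.2% ± 2.56 of the sum in EV under vehicle, 15.9% ± 7.39 in NES, 41.9% ± 9.15 in NLS, 45.9% ± 5.03 in NLSKD and 63.8% ± 1.51 in WT. Under vehicle the highest mean share was that of EPHB3 in EV (23.0% ± 2.97 of the sum) and of EPHA7 in NES (27.0% ± 7.81). In FPKM, EPHB3 libraries overlapped those of EPHA6 and EPHA1 in EV. EPHA7 libraries overlapped those of EPHB4 and EPHA3 in NES. Among the receptors outside the chosen members, EPHA6 ran from 1.22 to 6.04 FPKM and EPHA10, whose kinase domain lacks activity, from 1.13 to 4.18. EPHA6 group means were highest in EV, at 4.85 FPKM under vehicle and 4.61 under R1881. They were lowest in NES, at 2.33 and 1.65. The EV libraries overlapped those of each rescue line under vehicle, and those of NLS and NLSKD under R1881. EPHA5, EPHA8 and EPHB1 did not exceed 0.0933 FPKM in any library.

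**Figure D3:**
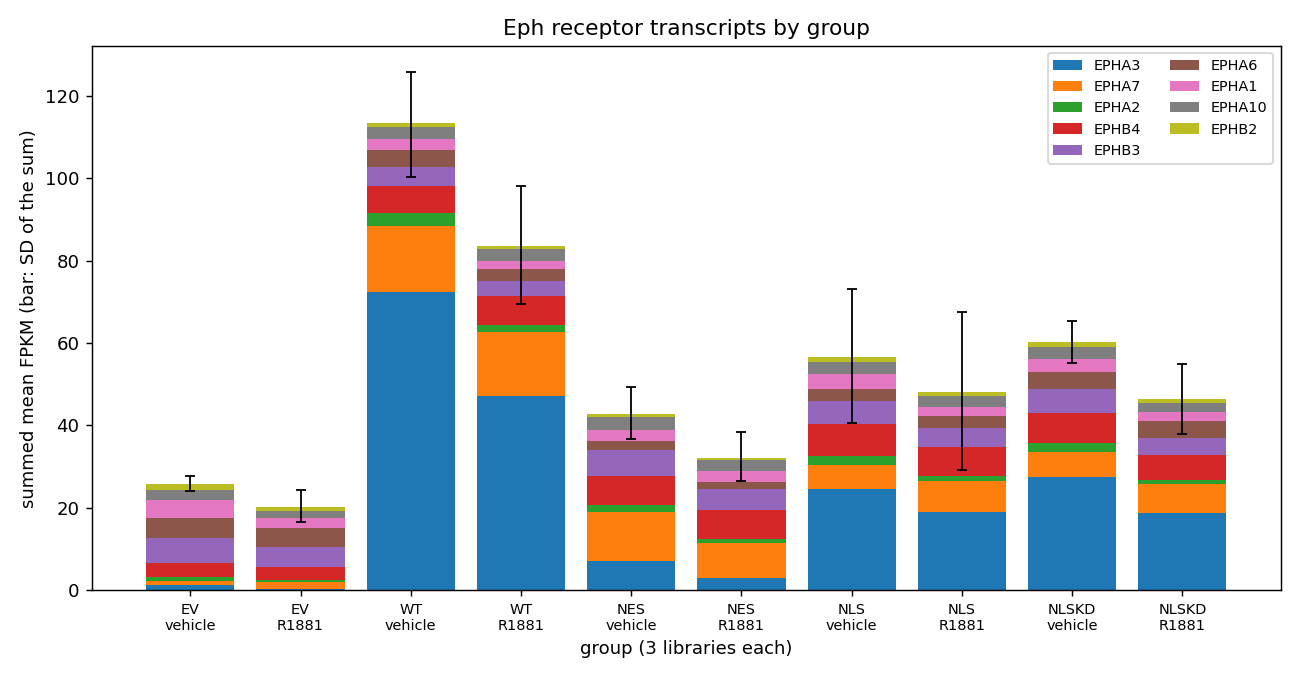
Summed mean FPKM of the Eph receptors in each group of 3 libraries, stacked by gene, with the SD of the sum over all 14 receptors as the bar; EPHB6, EPHA4, EPHA5, EPHA8 and EPHB1 are too low to be drawn. The EPHA3 segment is a thin base in EV (5.2% of the sum under vehicle) and the main part in WT (63.8%).

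Across the 10 group means of log2 CPM, the pairs of members that moved most together were EPHA2 with EPHA3 (Pearson r = 0.873), EPHA7 with EPHB4 (0.849), EPHA2 with EPHB4 (0.815), EPHA3 with EPHB4 (0.803), EPHA3 with EPHA7 (0.787) and EPHA1 with EPHB3 (0.762). EPHB2 ran against EPHB6 (-0.779) and EPHA1 against EPHA7 (-0.62). These are descriptions over 10 points that share lines, treatments and library sizes, taken from 28 pairs, with no test. The protein-coding genes most alike to EPHA3 by the same measure, among 11801 candidates, were SEPHS1 (0.988), BCAT1 (0.982), HSD17B12 (0.976), DCLK2 (0.975) and ZNF558 (0.967). BCAT1, which transfers the amino group of branched-chain amino acids, ran from 4.04 CPM in EV under R1881 to 51.2 CPM in WT under vehicle, the same lowest and highest groups as EPHA3. SEPHS1, a selenophosphate synthetase, had the highest likeness with a much smaller range, from 100.1 to 140 CPM. Among those most alike to EPHA7 were ZNF347 (0.969), ERVMER34-1 (0.967), ZNF253 (0.955) and ZNF844 (0.955).

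The 4 members that were lowest in EV are shown with the bases just before their annotated start. This choice rests on differences between lines, by which the members were chosen, so nothing about shared control is read from it. The sequences are from RefSeq (GRCh38.p14), written 5′ to 3′ on the strand of the gene and ending before the start of the gene in the deposited tables. Capitals mark GC boxes, the letters GGGCGG or CCGCCC, which is a binding motif of SP1-type factors.
EPHA3, chr3:89107371-89107523, plus strand: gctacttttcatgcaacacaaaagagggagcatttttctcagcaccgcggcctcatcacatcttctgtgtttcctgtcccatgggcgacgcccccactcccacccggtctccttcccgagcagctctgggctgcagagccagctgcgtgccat
EPHA7, chr6:93419560-93419809, minus strand: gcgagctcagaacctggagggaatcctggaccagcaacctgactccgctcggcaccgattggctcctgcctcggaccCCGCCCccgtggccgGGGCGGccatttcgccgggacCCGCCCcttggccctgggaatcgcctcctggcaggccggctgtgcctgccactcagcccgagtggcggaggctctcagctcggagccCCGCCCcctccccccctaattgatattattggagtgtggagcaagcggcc
EPHA2, chr1:16156088-16156319, minus strand: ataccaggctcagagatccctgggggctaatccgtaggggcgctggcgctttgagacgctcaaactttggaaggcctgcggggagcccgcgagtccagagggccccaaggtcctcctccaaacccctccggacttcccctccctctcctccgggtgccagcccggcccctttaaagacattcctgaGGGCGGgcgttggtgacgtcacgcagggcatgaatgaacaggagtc
EPHB4, chr7:100827524-100827773, minus strand: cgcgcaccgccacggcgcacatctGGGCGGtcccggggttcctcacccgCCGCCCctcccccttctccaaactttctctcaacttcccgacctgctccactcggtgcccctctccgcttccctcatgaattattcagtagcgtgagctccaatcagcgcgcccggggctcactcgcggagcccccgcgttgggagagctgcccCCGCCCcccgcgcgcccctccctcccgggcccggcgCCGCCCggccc
The EPHA3 stretch (153 bases) held 7 CG pairs and 0 GC boxes, that of EPHA7 (250 bases) 19 and 4, that of EPHA2 (232 bases) 14 and 1, and that of EPHB4 (250 bases) 29 and 4. In the 250 bases before the RefSeq start, all 9 members had an entry, and each except EPHA3 held at least 1 GC box in an entry. The motif was present in 42.6% of 35116 such promoters. That share is per promoter, whereas EPHA7 had 3 entries and EPHA4 and EPHB2 had 2 each. The EPHB6 entry lay 7695 bases from the gene start in the deposited tables. Entries of the members held 3 to 42 CG pairs, against a median of 11 over all promoters. An enrichment of GC boxes was not tested. A match is only a match of letters, and its absence says only that these letters are not in this window.

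Whether androgen changed the receptors was tested in each line and as the mean of the 5 lines, with edgeR's quasi-likelihood test fitted once to all 30 libraries. A gene is called changed at a Benjamini-Hochberg adjusted p under 0.05 over the 18296 tested genes, and fold changes are log2 values of R1881 over vehicle with their standard error. In the mean of the 5 lines 4 of the 8 members fell, and none rose. By the same rule 27.4% of all tested genes were called, 13.9% of them lower and 13.5% higher, all as shares of the tested genes. The median log2 fold change was -0.26 over the 8 members and 0 over all tested genes.

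EPHA2 fell by 0.91 ± 0.10 (edgeR adjusted p = 9.97e-08), and its group mean was lower under R1881 in each line without overlap of libraries. In EV it fell from 0.674, 0.841 and 0.813 FPKM to 0.420, 0.347 and 0.357. In WT it fell from 2.61, 3.82 and 2.50 FPKM to 1.10, 1.81 and 1.5. In NLSKD it fell from 2.21, 2.38 and 1.89 FPKM to 1.15, 1.13 and 0.756. These are log2 changes of -1.06 ± 0.25 in EV, -0.999 ± 0.227 in WT and -1.07 ± 0.23 in NLSKD, with edgeR adjusted p of 0.0048, 0.0049 and 0.0044. In NES the libraries went from 1.33, 1.98 and 1.77 FPKM to 1.09, 0.919 and 1.10 (-0.68 ± 0.23, edgeR adjusted p = 0.067), and in NLS from 1.82, 2.22 and 2.25 to 1.01, 1.41 and 1.33 (-0.74 ± 0.23, edgeR adjusted p = 0.068). Neither passed the threshold in this fit. With the library number added as a block, both were called (edgeR adjusted p = 0.033 in NES and 0.023 in NLS), though in NLS number 3 did not pair. A lack of overlap between treatments is given here and below as a description, without the share over all tested genes, so nothing is read from it. The call in EV was lost when the fit held EV alone (edgeR adjusted p = 0.10) and with limma on log2(FPKM + 1) (adjusted p = 0.081).

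EPHA3 fell by 0.91 ± 0.21 in the mean of the 5 lines (edgeR adjusted p = 0.0013). The fitted changes were -1.81 ± 0.50 in EV (edgeR adjusted p = 0.020), -1.23 ± 0.46 in NES (0.11), -0.61 ± 0.45 in WT (0.58), -0.54 ± 0.45 in NLSKD (0.88) and -0.37 ± 0.45 in NLS (0.92). The libraries of the 2 treatments, listed above, were separate in EV, WT, NES and NLSKD and overlapped in NLS, where the R1881 libraries ran from 7.06 to 32.1 FPKM. The call in EV, at group means of 9.11 CPM under vehicle and 2.59 CPM under R1881, depended on single libraries. Without EV vehicle replicate 1 the edgeR adjusted p was 0.13, without replicate 3 it was 0.088, and without R1881 replicate 2 or 3 it was 0.085 and 0.088. With limma it was 0.37 on log2(FPKM + 1) and 0.055 on log2(FPKM + 0.1).

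EPHA1 fell by 0.44 ± 0.09 in the mean (edgeR adjusted p = 7.07e-04). In EV it went from 4.18, 5.49 and 3.63 FPKM to 2.75, 2.24 and 2.57, a change of -0.82 ± 0.21 (edgeR adjusted p = 0.011). That call was lost without EV vehicle replicate 2 (0.081) or EV R1881 replicate 2 (0.062), and when the fit held EV alone (0.053). In NES the same gene read 1.94, 3.02 and 3.03 FPKM under vehicle and 2.84, 2.27 and 2.83 under R1881, overlapping, at 0.02 ± 0.21. The exons of EPHA1 share 82 of 4733 bases with those of ZYX on the other strand. EPHB3 fell by 0.33 ± 0.08 in the mean (edgeR adjusted p = 0.0017), and its fitted change was below 0 in each line, from -0.22 ± 0.17 in NLS to -0.45 ± 0.17 in NLSKD, with none called in a single line. In NLSKD the libraries went from 6.38, 5.38 and 5.40 FPKM to 4.01, 4.72 and 3.60, without overlap.

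EPHA7, EPHB2, EPHB4 and EPHB6 were not called in the mean. Their values were 0.16 ± 0.23 (edgeR adjusted p = 0.67), -0.19 ± 0.12 (0.28), -0.09 ± 0.09 (0.55) and 0.54 ± 0.31 (0.22). In NES, EPHB6 was higher under R1881 without overlap, at 0.129, 0.206 and 0.366 FPKM against 0.124, 0.0984 and 0.107, all low levels. The mean for EPHA7 joins lines of opposite sign. In EV the R1881 library was above the vehicle library of the same number in 3 of 3 pairs (0.68 ± 0.54, edgeR adjusted p = 0.60, and 0.12 in the fit blocked on the number), and in NES it was below in 3 of 3 (-0.47 ± 0.52, edgeR adjusted p = 0.71, and 0.32 with the block). The difference between these 2 responses was not called (-1.14 ± 0.75, edgeR adjusted p = 0.9999). Outside the chosen members, EPHA5, EPHA6 and EPHA10 could be tested and none was called in any line or in the mean, where EPHA6 stood at -0.23 ± 0.15 and EPHA10 at -0.28 ± 0.14 (edgeR adjusted p = 0.27 and 0.14). EPHA7 and EPHB4, like EPHA3 and EPHA2, were lowest in EV, and had no called androgen change. EPHA1 and EPHB3 were called lower in the mean and were not lowest in EV. Whether the androgen changes of these genes differ from each other was not tested, and nothing is read from the difference between lines.

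By line, 3 of 8 members were called lower in EV (EPHA1, EPHA2 and EPHA3), where 9.11% of tested genes were called and 4.55% were called lower. In WT and in NLSKD it was 1 of 8, EPHA2 in both, against 6.48% and 4.08% of tested genes called. In NES and NLS it was 0 of 8, against 8.25% and 4.44%. At an unadjusted p under 0.05, edgeR gave 2 members in NES (EPHA2 and EPHA3) and 2 in NLS (EPHA1 and EPHA2). DESeq2 called 1 member in each of these lines, EPHA2. limma called 0 in NES and, in NLS, 1 (EPHA2) on log2(FPKM + 1) and 0 on log2(FPKM + 0.1). With the replicate number as a block, 2 members were called in NES, EPHA2 (-0.65, edgeR adjusted p = 0.033) and EPHA3 (-1.18, edgeR adjusted p = 0.013). Over all genes the block raised the calls in WT from 1186 to 1894 and in NES from 1510 to 2495.

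The difference of the androgen response between each rescue line and EV was tested as an interaction. None of the 8 members was called for WT, NES, NLS or NLSKD, against 0.0437%, 0.0%, 0.0164% and 0.0164% of tested genes. At an unadjusted p under 0.05 there were 0 members for WT and NLSKD, EPHA1 for NES (0.84 ± 0.30) and EPHA3 for NLS (1.44 ± 0.67), and DESeq2 and limma called 0 in each. Without the filter on low counts EPHA3 was called for NLS (1.42, edgeR adjusted p = 0.023). The lines in which a member was called and those in which it was not are thus not shown to differ.

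Markers of other cell types were read in the same libraries. Of 7 mesenchymal markers 6 were detected, and their summed group means were lower under R1881 than under vehicle in each line (9.64 against 14.1 FPKM in EV, 15.3 against 19.9 in WT, 15.4 against 22.1 in NES, 12 against 15.7 in NLSKD and 14.2 against 15.9 in NLS). The sum was mostly FN1, VIM and COL1A1, and its range over libraries was 7.88 to 25.1 FPKM. COL1A2 was at 0 in all 30 libraries, CDH2 and DCN in 28, and ZEB1 did not exceed 0.0372 FPKM. The 6 neuroendocrine and neuronal markers summed to 2.15 to 9.32 FPKM, with group means highest in NLS (7.05 FPKM under vehicle) and lowest in WT under R1881 (2.94). The endothelial sum was also lower under R1881 in each line, at 0.299 against 1.11 FPKM in EV, 0.887 against 2.24 in WT, 0.488 against 2.05 in NES, 0.97 against 1.4 in NLS and 0.709 against 1.08 in NLSKD. It was almost wholly VWF (0.286 to 2.5 FPKM), since CDH5 was at 0 in all 30 libraries and PECAM1 in 26. The part of these markers in the receptor values was not tested.

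**Figure D4:**
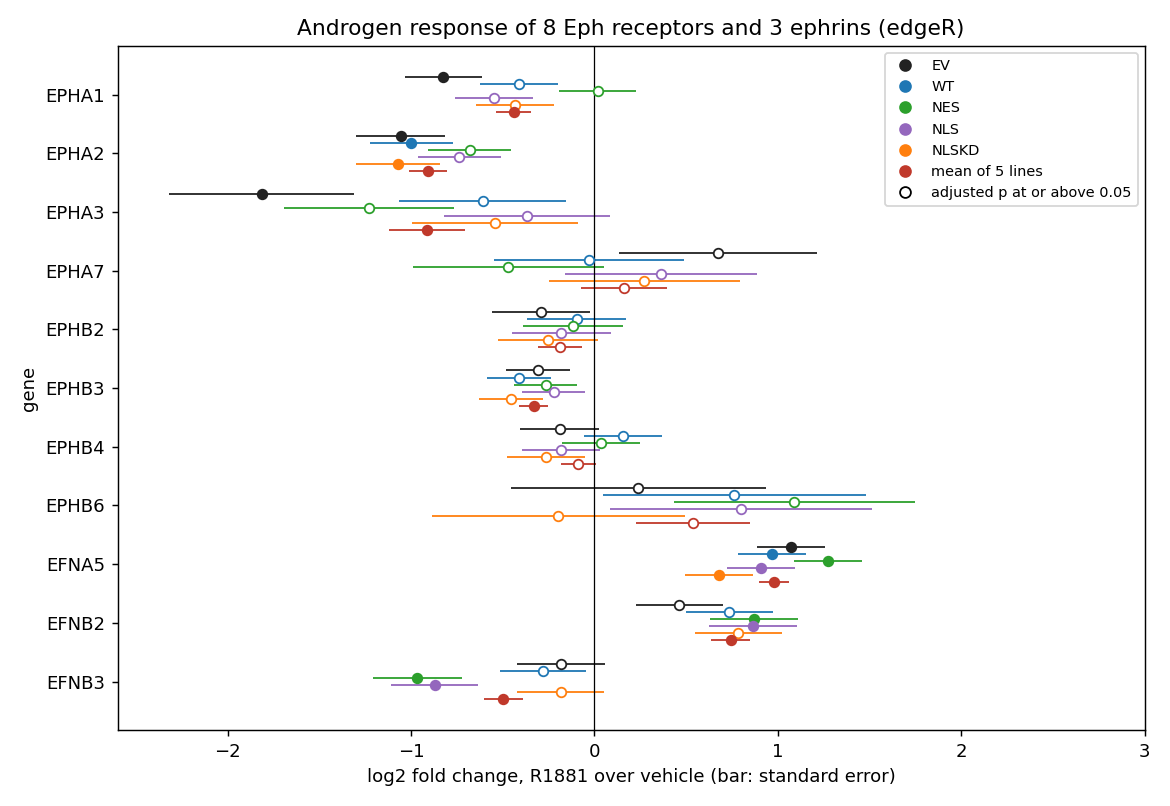
Log2 fold change of R1881 over vehicle with its standard error for 8 receptors and 3 ephrins in each line and as the mean of the 5 lines; filled points passed an adjusted p of 0.05. EPHA2 is left of 0 in each line and EFNA5 is right of 0 and filled in each line.

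Among the 8 ephrins, the ligands of these receptors, EFNA5, which binds EPHA3 and EPHA7, rose with androgen in each of the 5 lines. In EV it went from 17.3, 16.7 and 23.1 FPKM to 38.3, 38.0 and 44.7, in WT from 14.7, 12.6 and 14.3 to 26.8, 24.0 and 29.9, and in NES from 14.4, 10.2 and 12.9 to 29.8, 27.3 and 32.2. The treatments did not overlap in any line. The log2 change was 1.27 ± 0.19 in NES, 1.07 ± 0.19 in EV, 0.97 ± 0.19 in WT, 0.91 ± 0.19 in NLS and 0.68 ± 0.18 in NLSKD, and 0.98 ± 0.08 in the mean (edgeR adjusted p = 4.01e-10). In NLSKD the call (edgeR adjusted p = 0.031) was lost in 5 of 6 fits that left out 1 library (up to 0.17), with no filter on low counts (0.15) and when the fit held NLSKD alone (0.054). In NLS it was lost when the fit held NLS alone (0.29).

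EFNB2, the ligand of EPHB4, rose by 0.74 ± 0.11 in the mean (edgeR adjusted p = 4.02e-06) and was higher under R1881 without overlap in each line. In EV it went from 42.6, 38.3 and 41.1 FPKM to 64.6, 50.4 and 54.4. That rise in EV was not called in the main fit, with the block on the library number, by DESeq2 or by limma. EFNB2 was called in NES (0.87 ± 0.24) and NLS (0.87 ± 0.24), and both calls were lost in some of the fits without 1 library (edgeR adjusted p up to 0.25 and 0.36) and when the fit held that line alone (0.16 and 0.39). In WT (0.74 ± 0.24) and NLSKD (0.78 ± 0.24) it was just short of the threshold (edgeR adjusted p = 0.066 in both), and the block on the library number made it called in both (edgeR adjusted p = 0.0020 and 0.0017), as it was with DESeq2 (0.049 and 0.048). EFNB3 fell by 0.50 ± 0.11 in the mean (edgeR adjusted p = 7.04e-04) and was called lower in NES (-0.96 ± 0.24) and NLS (-0.87 ± 0.24). Without the 5 libraries above 9% mitochondrial counts these single-line calls were lost (0.11 and 0.26). EFNA1, EFNA2, EFNA3, EFNA4 and EFNB1 were not called in any line or in the mean, so 3 of 8 ephrins were called in the mean, 2 higher and 1 lower, where 27.4% of all tested genes were called.

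Between lines the ephrins were tested over both treatments together, since the rule that chose the members did not use them. Their list and these tests were still chosen with earlier results of these data known. EFNA5 was lower than EV in each rescue line, by log2 changes of -0.69 ± 0.13 in NLS, -0.51 ± 0.13 in NES, -0.50 ± 0.13 in WT and -0.48 ± 0.13 in NLSKD (edgeR adjusted p = 5.20e-04, 0.0083, 0.0080 and 0.014). Without EV vehicle replicate 3 the calls in WT and NLSKD were lost (0.053 and 0.090), the NLSKD call also without NLSKD vehicle replicate 1 (0.053). EFNB2 was lower than EV in NES (-1.24 ± 0.17), NLS (-0.88 ± 0.17) and NLSKD (-0.72 ± 0.17), with edgeR adjusted p of 7.39e-06, 5.70e-04 and 0.0043. With the block it was also called lower in WT (-0.35, edgeR adjusted p = 0.023). EFNB3 was higher in WT (0.50 ± 0.17) and NLSKD (0.53 ± 0.17) than in EV and higher in NLS than in NES (0.75 ± 0.17). The calls against EV were lost in 8 of 12 and 7 of 12 fits without 1 library, and all 3 without the libraries above 9% mitochondrial counts. Of the 8 ephrins, 3 were called in NLSKD and 2 in each other rescue line, against 11.6% of tested genes in NLSKD, 12.5% in NLS, 13.4% in NES and 16.3% in WT. In NLS against NLSKD 0 of 8 were called, at an unadjusted p under 0.05 and by DESeq2 and limma too, where 0.0328% of tested genes were. EFNA5 and EPHA3 thus stood in opposite order between EV and the rescue lines. The ephrin sum was 112 ± 11.7 FPKM in EV under vehicle and 94.3 ± 5.18 in WT.

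**Figure D5:**
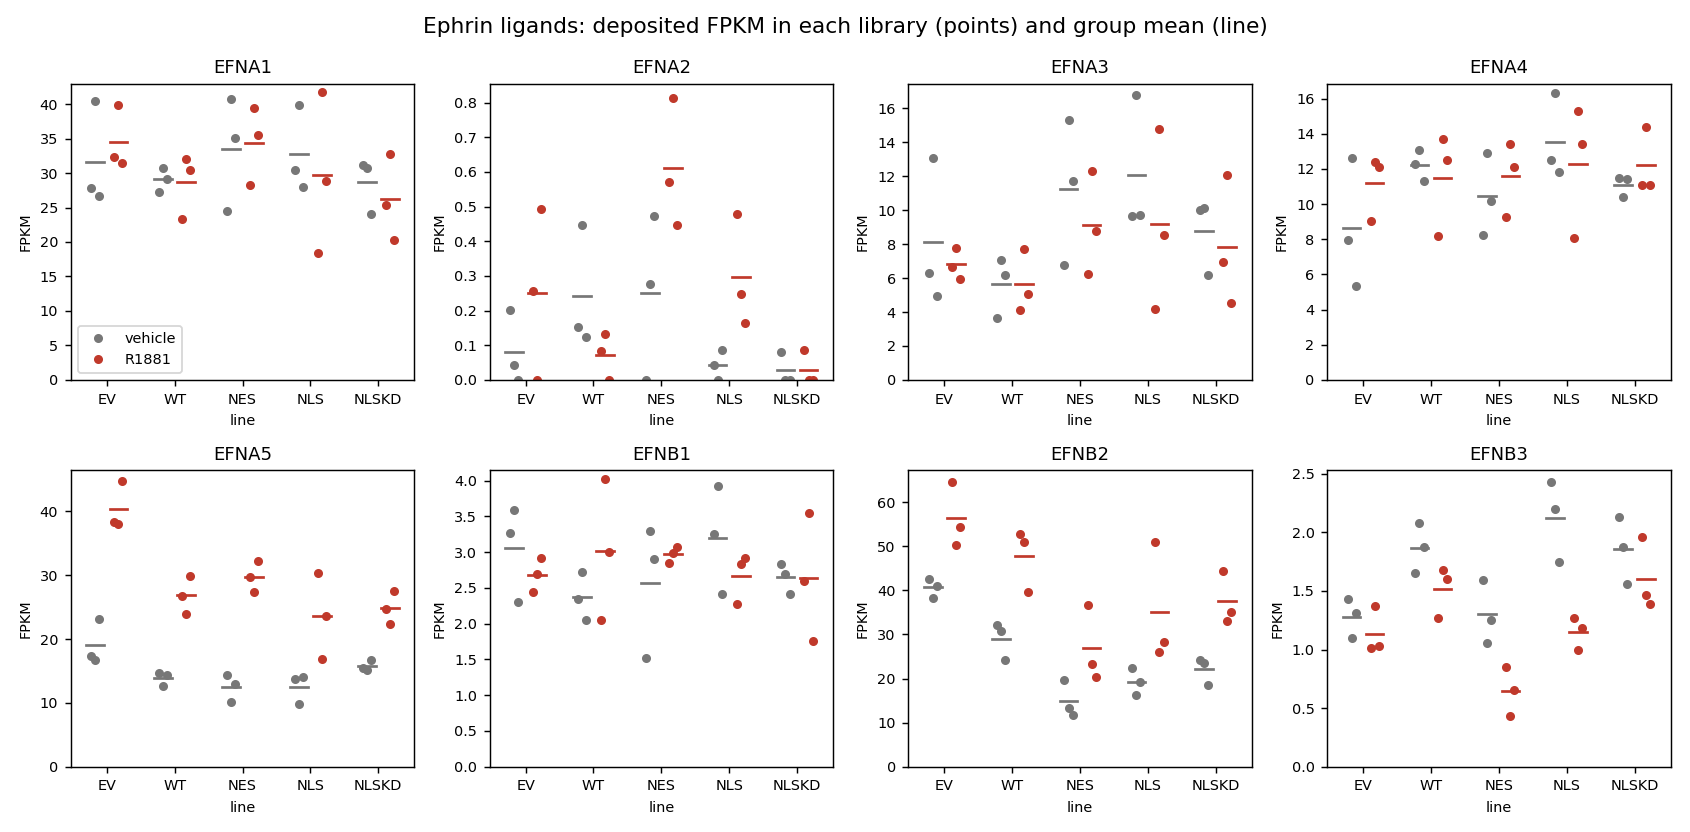
Deposited FPKM of the 8 ephrins by line, with vehicle in grey and R1881 in red; points are the 3 libraries of a group and short lines their mean. EFNA5 and EFNB2 are higher under R1881 in each line, and EFNB2 is lowest in NES.

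Of 61 genes that act with Eph receptors or relay their signal, 52 were tested. In the mean androgen response over the 5 lines 18 of 52 were called, 7 higher and 11 lower, against 27.4% of all tested genes. A fit blocked on the library number called 28 of them and 6460 of all 18296 genes. By role, 5 of 14 adaptors fell, 2 of 8 exchange factors fell and 1 rose, 2 of 10 kinases rose and 3 fell, 1 of 8 GTPase genes fell, 2 of 6 PDZ and junction partners rose, and 1 of 3 phosphatases and 1 of 3 proteases rose. GRB10, an adaptor of receptor tyrosine kinases that is also known as a target of mTOR complex 1, fell in each line, from 829 to 252 mean CPM over the lines (-1.80 ± 0.10, edgeR adjusted p = 1.58e-13). PAK1, a kinase driven by RAC1 and CDC42, fell from 18.6 to 9.71 CPM (-0.96 ± 0.07, edgeR adjusted p = 4.48e-11). VAV3, an exchange factor of small GTPases, fell from 1.48 to 0.119 CPM (-3.67 ± 0.28), and KALRN, another exchange factor, from 3.81 to 1.80 CPM (-1.09 ± 0.15). At its level under R1881, though not under vehicle, VAV3 was a few counts per library. By line 9 of 52 partners were called in NES, 6 in EV, 6 in WT, 4 in NLS and 2 in NLSKD, against 8.25%, 9.11%, 6.48%, 4.44% and 4.08% of tested genes. With the block the counts in NLS and NLSKD were 7 and 4. The count in NES was 4 without R1881 replicate 2 or 3 and 5 without vehicle replicate 1, that in EV was 3 without vehicle replicate 1, and that in WT was 3 without vehicle replicate 1 or R1881 replicate 1 or 2. GRB10 lost its call in NLS when the fit held NLS alone (edgeR adjusted p = 0.10), as did VAV3 (0.34). Among those with the smallest adjusted p, PTPN1, a phosphatase, rose in EV (0.60 ± 0.18, edgeR adjusted p = 0.033), and FYN, a SRC-family kinase, fell in NLS from 2.81 to 0.482 CPM (-2.52 ± 0.57, edgeR adjusted p = 0.0065). PTPN1 in EV, FYN in NLS and PAK1 in NLS lost their call without the libraries above 9% mitochondrial counts (0.072, 0.095 and 0.077).

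Against EV over both treatments, 8 of 52 partners were called in WT, 6 in NLS, 5 in NES and 5 in NLSKD, each count below the share of all tested genes given above for the ephrins (16.3%, 12.5%, 13.4% and 11.6%). With the block 15 were called in WT and 8 in NLSKD. Fits without 1 library gave 3 to 8 in NLS, 3 to 7 in NES and 2 to 4 in NLSKD, and without the libraries above 9% mitochondrial counts 3 were called in NLS and 2 in NLSKD. GRB10 was higher in WT (0.79 ± 0.16), NLS (0.84 ± 0.16) and NLSKD (0.96 ± 0.16), with edgeR adjusted p of 7.21e-04, 4.86e-04 and 1.21e-04, and higher in NLS than in NES (0.59 ± 0.16, edgeR adjusted p = 0.030). PIK3R1, the regulatory subunit of PI3-kinase, was higher in WT (0.95 ± 0.19), and SHC1, an adaptor towards RAS, in NES (0.59 ± 0.10). TJP1, a scaffold of tight junctions, was lower in NES (-0.80 ± 0.22), NLS (-1.09 ± 0.22) and NLSKD (-0.80 ± 0.22), at 181, 149 and 181 CPM against 314 CPM in EV. Its calls in NES and NLSKD were lost without EV vehicle replicate 3 (0.056 and 0.068). ITSN1, an endocytic scaffold with exchange factor activity, was lower in NES (-0.62 ± 0.14). ADAM12, a metalloprotease that can shed surface proteins, was lower in WT (-3.52 ± 0.65), NES (-2.22 ± 0.58) and NLS (-1.85 ± 0.57), and GRIP1, a PDZ scaffold, in WT (-3.27 ± 0.75) and NLS (-2.39 ± 0.69). Neither exceeded a mean of 1.025 CPM in any line. KALRN was lower (-0.80 ± 0.24) and ANKS1B, an adaptor, higher (0.69 ± 0.21) in NLSKD. The NLS calls of ADAM12 and GRIP1 and both NLSKD calls were lost without the libraries above 9% mitochondrial counts (0.13, 0.22, 0.063 and 0.089). In NLS against NES, GRB10 and FYN (1.505 ± 0.413, edgeR adjusted p = 0.036) were called higher, 2 of 52 against 3.88% of tested genes, and both calls were lost when the fit held these lines alone (0.14 and 0.066). In NLS against NLSKD 0 of 52 were called, with 1 at an unadjusted p under 0.05 and 0 by DESeq2 and limma.

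Libraries with the same number also moved together for some family genes. EPHA7 was highest of the 3 libraries in library 1 in 10 of 10 groups and lowest in library 2 in 8 of 10, and EPHA3 was highest in library 1 in 7 of 10. EFNB2 was highest in library 1 in 10 of 10 groups, EFNA3 was highest in library 2 in 10 of 10, and EFNA5 was lowest in library 2 in 10 of 10. Of all tested genes, 1.14% were highest in library 1 and 1.15% in library 2 in all 10 groups. No such share was taken for the lowest library, so the counts of EFNA5 and EPHA7 as lowest have none beside them. What the number stands for is not given in the labels.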

How the data were processed

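RNA was sequenced from 30 LNCaP samples as paired-end reads of 150 bases. The authors deposited a raw read count per gene and library and an FPKM value per gene and library, per the file headers. The build hg38, the aligner HISAT2 (version 2.0.5) and the counter featureCounts (version 1.5.0-p3) are named in the submitters' processing notes, without settings. In each library 100% of genes with at least 50 counts gave 1 FPKM denominator to within 0.1%. Deposited FPKM is thus the deposited count per exon length and per 1 scaled depth of each library. That depth was not the total count, since the total over it ran from 0.9133 to 1.077. All rows named a gene. No pair of replicates agreed within sampling noise.

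Counts were tested in R 4.3.3 with edgeR 4.0.16 (TMM, filterByExpr, glmQLFit and glmQLFTest, two-sided) in 1 fit of 30 libraries with a mean per group and no block. The filter kept 18296 genes. Standard errors are those the F statistic implies, and SD is over 3 libraries. There were 16 comparisons, with adjustment over all tested genes in each. Alternatives were RLE size factors, DESeq2 1.42.0, no filter on low counts, a fit of the groups compared only, a replicate block, limma 3.58.1 on log2(FPKM + 1) and log2(FPKM + 0.1), leaving out each library, and leaving out the 5 libraries above 9% mitochondrial counts. The code was tested on simulated data.

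Samples were grouped by their titles. Same-numbered libraries of the treatments deviated together in EV (r = 0.342, 0.352 and 0.165 for numbers 1, 2 and 3), WT (0.212, 0.166 and 0.128), NES (0.516, 0.296 and 0.25) and NLSKD (0.21, 0.105 and 0.148), so numbers were taken to pair these samples, from the data and not from a label. The main fit left this pairing out. The fit with the replicate block used the number as 1 factor common to all 10 groups, thus across lines and not only within each line. Between EV and a rescue line, same-numbered libraries correlated from -0.129 (NES vehicle, number 3) to 0.508 (NLS vehicle, number 2). The members, ephrin and partner lists, markers and tests were chosen with earlier results of these data known. The text names all members, the other Eph receptors, the ephrins, MTOR, KLK3 and FKBP5, up to 4 called partners per comparison by adjusted p, and the 5 genes most alike to EPHA3 and to EPHA7 by Pearson r of log2 CPM (prior count 2, mean CPM at least 1). Results of some genes that these rules name are not reported here. Receptor differences between lines were not tested, because the members were chosen on them. Gene positions are those of GENCODE release 29, and promoters are from RefSeq (GRCh38.p14).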

Additional observations from a re-analysis of the deposited data

How the results depend on the processing

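The calls of EPHA1, EPHA2, EPHA3, EPHB3, EFNA5, EFNB2 and EFNB3 in the mean androgen response kept direction and threshold under each alternative run, leave-outs included. Calls in single lines depended on the fit. With the replicate block (the pairing by number holds for EV, WT, NES and NLSKD and fails for NLS, where number 3 gave r = -0.022), all-gene calls were 1894 in WT, 2495 in NES and 1272 in NLS (main 1186, 1510 and 813). The block gave 4535 for WT minus EV, 3698 for NES minus EV, 3534 for NLS minus EV, 15 for NLS minus NLSKD and 1350 for NLS minus NES, and 22, 2, 28 and 17 for the androgen differences of WT, NES, NLS and NLSKD from EV. Of the receptors, the block called 2 in NES and 1 in NLS, EPHA2 (-0.74, edgeR adjusted p = 0.023), and it changed no other receptor call. Of 39 same-numbered pairs of libraries, 32 correlated above 0.1.

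Fitting only the groups compared gave 1106 genes in EV, 846 in NES, 204 in NLS, 1399 for NLS minus EV, 1 for NLS minus NLSKD, 339 for NLS minus NES, and 2, 0 and 1 for the differences of WT, NLS and NLSKD from EV. It called 1 receptor in EV and 2 in WT. Without the libraries above 9% mitochondrial counts there were 508 genes in NLS, 422 for NLS minus NES, and 1 for each of the NLS and NLSKD differences. With no filter on low counts the differences of WT, NES, NLS and NLSKD gave 24, 10, 38 and 27 genes and NLS minus NLSKD 43, with 1 receptor called in NES and 1 in the NLS difference. DESeq2 gave 26, 2, 24 and 19 for the differences and 29 for NLS minus NLSKD, and called 1 receptor in NES and 1 in NLS. limma on log2(FPKM + 1) gave 100, 56, 93 and 78 for the differences, and on log2(FPKM + 0.1) 20, 10, 19 and 12. On log2(FPKM + 1) it called 1 receptor in EV and 1 in NLS. RLE factors gave 1 gene for the NLS difference and 1 receptor in NES. The causes were not tested.

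Leaving out single libraries gave 1 to 3 receptors in EV, 0 to 1 in NES, 1004 to 1310 genes in NES, 3 to 8 for NLS minus NLSKD, and 0 to 8, 0 to 4 and 0 to 2 for the WT, NLS and NLSKD differences. Signs that turned belonged to uncalled values. EPHB6 was -0.073 in EV and 0.295 in NLSKD without the libraries above 9% mitochondrial counts, and EPHA1 in NES was -0.006 with RLE and -0.005 with DESeq2. Over the leave-outs EPHA7 ran from -0.441 to 0.213 in WT, -0.506 to 0.737 in NLS, -0.004 to 0.552 in NLSKD and -0.012 to 0.273 in the mean. EPHB2 ran from -0.327 to 0.032 in WT, -0.331 to 0.155 in NLS and -0.472 to 0.081 in NLSKD. EPHB6 ran from -0.238 to 1.731 in EV and -1.177 to 0.303 in NLSKD, and its mean response was called without EV vehicle replicate 1 (0.841). EPHA1 in NES ran from -0.149 to 0.120, EPHB4 from -0.113 to 0.184 in NES and -0.251 to 0.016 in NLS, and EPHA3 from -0.935 to 0.021 in NLS. EPHA4, with 3 counts in 30 libraries, cannot be compared at this depth.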
